A study of Mus musculus with 2 samples.

Results

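The genes described here encode the subunits of the transcription factor NF-kB and proteins that restrain or otherwise regulate it. The 10 genes were taken as 8 genes of the canonical arm (Nfkb1, Rel, Rela, Nfkbia, Nfkbib, Nfkbie, Nfkbiz and Tnfaip3) and 2 of the noncanonical arm (Nfkb2 and Relb). An island, a stretch of clustered reads called by the authors, was counted for a gene when it overlapped by at least 1 bp the RefSeq gene body or the 10 kb on either side of it. This gave 32 of the 19531 islands in the series, 26 at the canonical and 6 at the noncanonical genes, and none of the 32 belonged to more than 1 of the 10 genes.

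The islands come from chromatin immunocleavage sequencing (ChIC-seq) of lymphoid tissue inducer (LTi) cells of C57BL/6 mice, sorted as lineage-negative, CD127-positive, CCR6-positive cells without KLRG1, NK1.1 or NKp46. In this assay an antibody, here against the HMG-box factor TCF-1, carries micrococcal nuclease to fixed chromatin, and the fragments cut free are sequenced. There was 1 library of 500 Tcf7fl/fl-VavCre cells, in which Cre driven by the pan-haematopoietic Vav promoter removes floxed Tcf7, from small intestine lamina propria, and 1 library of 500 Tcf7+/+ cells from Peyer's patches. Genotype and tissue therefore cannot be told apart, and neither group has a replicate. The labels used here give no age and do not say whether cells of several animals were pooled. The deposited counts stand in a peak and a control column whose names fit neither sample, so all values below refer to those columns and say nothing of the direction between genotypes.

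NF-kB proteins bind DNA as dimers. In the canonical arm, dimers with p50 (from Nfkb1), RelA or c-Rel are held in the cytoplasm by inhibitors of the IkB family until the IKK kinase complex marks those inhibitors for destruction. In the noncanonical arm, the kinase NIK triggers processing of p100 (from Nfkb2) to p52, which acts with RelB. The lymphotoxin beta receptor, which LTi cells engage on stromal cells through lymphotoxin, is a classical trigger of the noncanonical arm, and NF-kB induces several of its own inhibitors.

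Promoter sequences in the RefSeq table (GRCm38.p6, the mm10 build) were available for 7 of the 10 genes, and an island lay over the start of each of the 7. The same held for 39.7% of the 17491 protein-coding genes with a promoter in that table. Nfkb1, Relb and Nfkbiz had no entry. The 250 bases before the start are shown for 5 genes because islands cover them and because they hold the motif that NF-kB itself binds. Capitals mark matches on either strand to the 10-base NF-kB consensus and to the TCF/LEF cores CTTTGA and CTTTGT. The windows are chr11:23770970-23771219 (minus strand) for Rel, chr12:55492648-55492897 (minus) for Nfkbia, chr17:45555450-45555699 (plus) for Nfkbie, chr10:19015411-19015660 (minus) for Tnfaip3 and chr19:46304487-46304736 (plus) for Nfkb2, each written 5′ to 3′ along the gene.
Rel: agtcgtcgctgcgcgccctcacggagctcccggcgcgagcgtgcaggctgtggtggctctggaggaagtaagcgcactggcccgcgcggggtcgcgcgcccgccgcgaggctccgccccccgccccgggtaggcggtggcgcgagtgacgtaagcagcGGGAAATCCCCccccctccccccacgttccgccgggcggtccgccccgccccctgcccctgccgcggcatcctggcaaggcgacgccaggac
Nfkbia: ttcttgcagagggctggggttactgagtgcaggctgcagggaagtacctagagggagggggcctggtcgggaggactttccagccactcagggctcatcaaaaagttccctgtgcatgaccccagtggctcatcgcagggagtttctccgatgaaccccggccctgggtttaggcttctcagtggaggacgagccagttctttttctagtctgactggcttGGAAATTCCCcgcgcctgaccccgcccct
Nfkbie: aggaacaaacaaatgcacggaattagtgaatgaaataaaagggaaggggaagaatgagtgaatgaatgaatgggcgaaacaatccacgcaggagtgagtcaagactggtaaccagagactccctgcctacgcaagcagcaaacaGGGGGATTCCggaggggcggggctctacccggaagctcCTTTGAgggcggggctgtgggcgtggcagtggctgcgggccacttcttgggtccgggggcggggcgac
Tnfaip3: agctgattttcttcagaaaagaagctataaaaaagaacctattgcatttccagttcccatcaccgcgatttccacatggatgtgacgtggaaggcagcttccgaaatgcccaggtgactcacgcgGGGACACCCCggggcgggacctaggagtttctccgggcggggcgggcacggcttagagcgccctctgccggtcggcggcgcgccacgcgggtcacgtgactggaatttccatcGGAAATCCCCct
Nfkb2: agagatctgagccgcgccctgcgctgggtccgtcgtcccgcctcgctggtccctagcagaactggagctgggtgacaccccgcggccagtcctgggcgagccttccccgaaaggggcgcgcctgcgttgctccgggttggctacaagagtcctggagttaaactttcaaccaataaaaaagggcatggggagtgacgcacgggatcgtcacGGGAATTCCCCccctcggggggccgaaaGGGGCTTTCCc

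The NF-kB consensus was found in 7 of the 10 promoter windows of the 7 genes, and in windows of 5 of the 7 genes, against 7.25% of the 32851 promoter windows of the same length in the table. The capitals in Rel at 92 and 91 bases before the start are overlapping matches, as are those in Nfkb2 at 39 and 38 bases. Nfkb2 had a further match 11 bases before the start, Nfkbia had 1 at 29 bases, Nfkbie had 1 at 106 bases, and Tnfaip3 had matches at 125 and 12 bases. A TCF/LEF core occurred in 2 of the 10 windows, against 27.6% of all windows. These were CTTTGA in Nfkbie, 68 bases before the start and seen in capitals above, and CTTTGT in a second window of Tnfaip3. Rela and Nfkbib held none of these motifs in the window.

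Islands lay at all 10 NF-kB genes, but most were of modest strength. By the same rule 54.7% of all 21883 protein-coding genes had one, as did 61.4% of the 16050 whose length lies within the range of the 10 genes. In the authors' deposited table, 19 of the 32 islands had an FDR of 0.05 or less, against 62.5% of all islands, so the share called was close to the background. By the authors' deposited table all of the 10 genes but Nfkbib, that is 9, had such an island, against 40.3% of all protein-coding genes. The 32 islands held 783 peak-library and 292 control-library reads. Dividing the peak reads by the control reads times the caller's library factor of 1.997 gave a pooled fold of 1.34 (95% interval 1.17 to 1.54). Intervals here and below are exact and cover counting error only.

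The same fold was 1.62 (1.61 to 1.63) over the 19481 nuclear islands away from these genes, counting islands with fewer than 200 peak-library reads. The ratio of the members' fold to that fold, from which the library factor cancels, was 0.828 (0.723 to 0.951). Reads of 1 gene are not independent of each other, and the spread between genes is wide: the median fold per gene was 1.31 over the 10 members and 1.60 over 11758 protein-coding genes with islands and a control read, with quartiles of 1.25 and 2.22. A fold above or below 1 depends on the scaling. With nuclear islands of fewer than 200 peak reads set to equal totals, the members' pooled fold was 0.828 instead of 1.34, and that of Nfkb1 was 1.20 (0.845 to 1.73), an interval that includes 1, instead of 1.94.

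**Figure D1:**
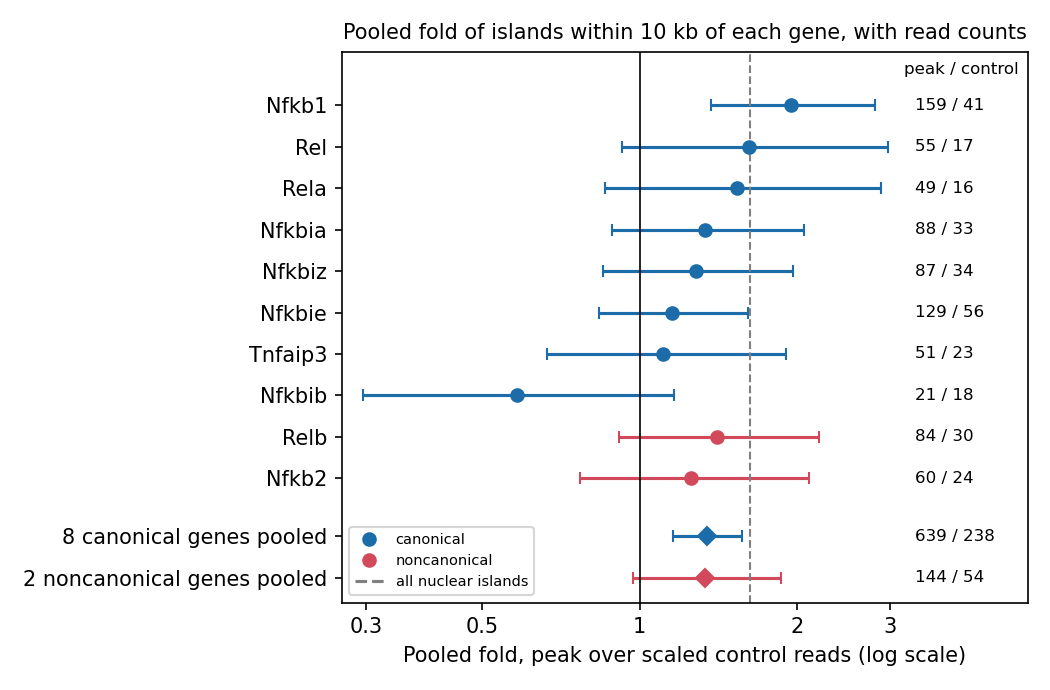
Pooled fold of peak-library over scaled control-library reads on a log axis for each gene, with exact 95% intervals; read counts stand at the right, diamonds pool each arm, and the dashed line marks all nuclear islands with fewer than 200 peak reads. With this scaling Nfkb1 at 1.94 is the gene whose interval lies above 1, and both pooled arms sit at 1.34.

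Nfkb1, which encodes p105 and its product p50, is the longest of the 10 genes at 107315 bp. It carried the most islands and the highest pooled fold. The gene lies on chromosome 3 at 135584655 to 135691969, and its 8 islands, 6 of them inside it, held 159 peak and 41 control reads, a pooled fold of 1.94 (1.37 to 2.81). This was the 66.3th percentile among the protein-coding genes just described. Of the 8 islands, 6 had an FDR of 0.05 or less in the authors' deposited table, near the 62.5% of all islands. The widest, at 135592001 to 135596000 inside the gene, had 55 peak and 10 control reads and a fold of 2.75 (1.39 to 6.06). The island at 135629001 to 135630200, also inside the gene, had 14 peak reads and 1 control read, a ratio of 7.01 with an interval of 1.07 to 296.

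The islands of Nfkb1 were not alike. The island at 135607201 to 135609000, which also covers a promoter window of the lncRNA gene Gm46827, had 17 peak and 10 control reads and a fold of 0.851. The 1 just inside the upper-coordinate end of the gene, at 135688801 to 135690600, had 23 peak and 11 control reads, a fold of 1.05. The other islands, at 2.25, 2.34, 2.75 and 4.01, each rested on 2 or 3 control reads.

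Rel and Rela, which encode c-Rel and RelA (p65), the activating subunits of the canonical arm, had islands mainly at their starts. Rel (chromosome 11, 23736847 to 23770969) had 1 island, at 23768201 to 23772000 over its start, with 55 peak and 17 control reads and a fold of 1.62 (0.926 to 2.98). Rela (chromosome 19, 5637442 to 5648134) had 1 over its start, at 5636601 to 5638000, with 26 peak and 9 control reads. Its other island lay 667 bp beyond the end of the gene, with 23 peak and 7 control reads. The pooled fold of Rela was 1.53 (0.857 to 2.89). For both genes the interval includes 1. By the authors' deposited table all 3 islands had an FDR of 0.05 or less, against 62.5% of all islands. That FDR takes the control reads as free of error.

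The inhibitors had lower folds than the canonical subunits. Together the 15 islands of the 5 inhibitor genes, with Nfkbiz counted among them, held 376 peak and 164 control reads, a pooled fold of 1.15 (0.953 to 1.39). Nfkbia, Nfkbib and Nfkbie alone held 238 peak and 107 control reads, a fold of 1.11 (0.883 to 1.41). Of the 15 islands 4 also lay over a protein-coding neighbour. They held 21 peak and 18 control reads at Sirt2, 18 and 10 at Slc35b2, 60 and 26 at Hsp90ab1, and 12 and 3 at Nxpe3. The inhibitors' fold without them was not computed. The 11 islands of Nfkb1, Rel and Rela held 263 peak and 74 control reads, a pooled fold of 1.78 (1.37 to 2.34). The ratio of the subunits' fold to the inhibitors' was 1.55 (1.12 to 2.16). Of the 11 subunit islands 8 are those of Nfkb1. Without them the ratio was 1.37 (0.879 to 2.19), so an interval that excludes 1 rests on Nfkb1. Of the subunit islands 9 of 11, and of the inhibitor islands 6 of 15, had an FDR of 0.05 or less in the authors' deposited table, against 62.5% of all islands.

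Nfkbia encodes IkB-alpha, an inhibitor that NF-kB itself induces. The gene spans 3239 bp on chromosome 12 at 55489409 to 55492647, and 4 islands covered 26.7% of it and its flanks. The island over its start, at 55491801 to 55493800, had 37 peak and 13 control reads, a fold of 1.43 (0.740 to 2.92). The island over its far end had 27 peak and 13 control reads, and upstream islands at 2154 and 6354 bp had 15 and 9 peak reads against 4 and 3 control reads. The island over the start and both upstream islands also overlap the lncRNA gene Gm36634. The pooled fold was 1.34 (0.886 to 2.06).

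Nfkbib, which encodes IkB-beta, had the lowest fold of the 10 genes. Its 1 island, at 28766001 to 28767400 on chromosome 7, covers its start and also overlaps the neighbouring gene Sirt2, a deacetylase gene. It had 21 peak and 18 control reads, a fold of 0.584 (0.296 to 1.16). Only 0.23% of the 11758 protein-coding genes had a lower fold, though the interval includes 1. The island cannot be assigned to either of the genes that share it.

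Nfkbie, which encodes IkB-epsilon, had 5 islands over and around a gene of 7470 bp on chromosome 17, at 45555700 to 45563169. The island over its start, whose 250 bases are printed above, had 9 peak and 6 control reads, a fold of 0.751 (0.239 to 2.56). Inside the gene, at 45556601 to 45558400, the counts were 19 peak and 4 control reads, a fold of 2.38 (0.791 to 9.61). The island with the most reads of all 32, with 60 peak and 26 control reads, lay 8232 bp downstream over Hsp90ab1, the gene of a cytosolic HSP90 chaperone, and the lncRNA gene Gm35399, and another lay over Slc35b2 with 18 peak and 10 control reads. The pooled fold was 1.15 (0.837 to 1.61).

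Nfkbiz and Tnfaip3 are NF-kB-induced regulators of other kinds. Nfkbiz encodes the nuclear protein IkB-zeta, which works on chromatin with p50. On chromosome 16 (gene at 55811375 to 55838954) it had an island inside it with 49 peak and 15 control reads, 1 over its upper-coordinate end with 26 peak and 16, and 1 over the neighbouring gene Nxpe3 with 12 peak and 3. Their pooled fold was 1.28 (0.853 to 1.97). Tnfaip3 encodes A20, a ubiquitin-editing enzyme that restrains NF-kB signalling. On chromosome 10 (gene at 19000910 to 19015410) it had 31 peak and 17 control reads over the printed start and 20 peak and 6 control reads over a second start inside the gene. Its pooled fold was 1.11 (0.666 to 1.90).

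The noncanonical genes each had an island over a start or gene end with many control reads, 22 at Nfkb2 and 26 at Relb. Elsewhere Nfkb2 had 1 island and Relb had 3, all with 2 or fewer control reads, as had 4 of the 8 Nfkb1 islands. Nfkb2 (chromosome 19, 46300994 to 46312400) had 44 peak and 22 control reads in the island over its starts, at 46304001 to 46306200, a fold of 1.00 (0.588 to 1.75). That island also overlaps the lncRNA gene 4833438C02Rik. Its second island lay 3594 bp upstream of the gene body, at 46295601 to 46297400, with 16 peak and 2 control reads, a fold of 4.01 (0.942 to 35.9). The pooled fold of Nfkb2 was 1.25 (0.768 to 2.10).

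Relb (chromosome 7, 19606217 to 19629438) showed the same split inside 1 gene. The island over its upper-coordinate end, at 19627801 to 19630800, had 45 peak and 26 control reads, a fold of 0.867 (0.523 to 1.46). The other 3 islands, all inside the gene, had 9, 14 and 16 peak reads against 1, 2 and 1 control reads. Together these 3 held 39 peak and 4 control reads, a fold of 4.88 (1.76 to 18.8). Small islands are in the table through their peak-library reads, at least 7 per island and with no minimum for control reads, so an interval above 1 for such islands is no test. The pooled fold of Relb was 1.40 (0.914 to 2.20).

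**Figure D2:**
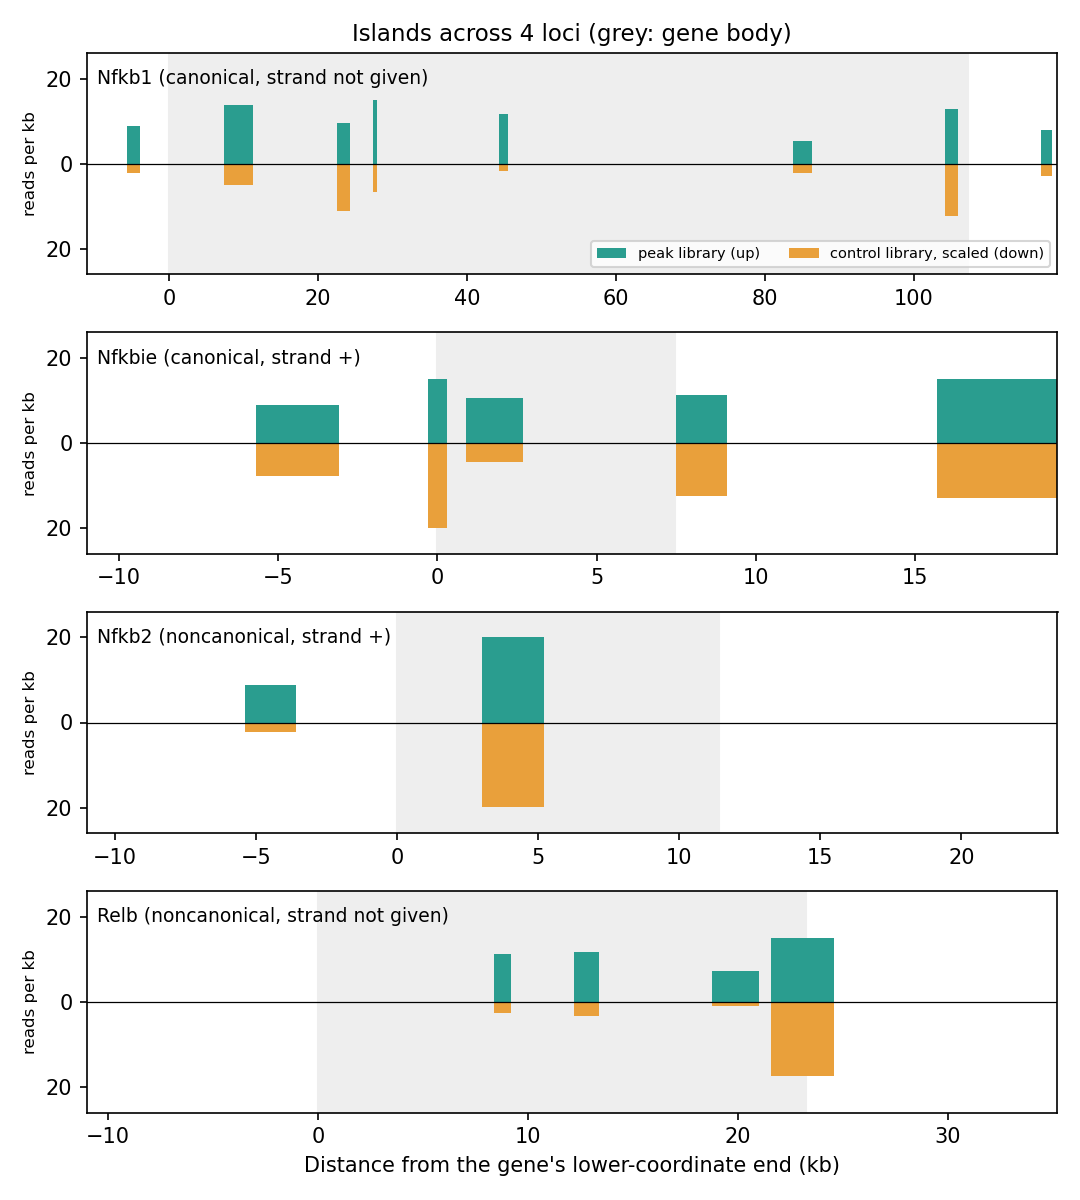
Peak-library reads per kb (up) and scaled control-library reads per kb (down) of each island at Nfkb1, Nfkbie, Nfkb2 and Relb, by distance in kb from the lower-coordinate end of the gene, whose body is grey. At Relb the island over the right end has bars of like height in both directions, with 45 peak and 26 control reads, while the 3 islands inside have short downward bars.

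Neighbours in the order of the pooled fold did not differ beyond counting error. Nfkb1 came first, followed by Rel, Rela, Relb, Nfkbia, Nfkbiz, Nfkb2, Nfkbie, Tnfaip3 and Nfkbib, and in all 9 adjacent pairs the interval of the ratio included 1. Of the 45 possible pairs 6 had an interval that excluded 1, without adjustment for the number of pairs. These were Nfkb1 over Nfkbie, at 1.68 (1.03 to 2.76), and Nfkb1, Rel, Rela, Relb and Nfkbia over Nfkbib, of which Nfkb1 over Nfkbib was the farthest at 3.32 (1.51 to 7.21).

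No difference in pooled fold between canonical and noncanonical genes was detectable at this depth. The 26 canonical islands held 639 peak and 238 control reads, a fold of 1.34 (1.16 to 1.57). The 6 noncanonical islands held 144 peak and 54 control reads, a fold of 1.34 (0.970 to 1.86). The ratio of canonical to noncanonical was 1.01, with an interval of 0.698 to 1.44 that leaves room for differences of that size in either direction. Of the canonical islands 15 of 26, and of the noncanonical islands 4 of 6, had an FDR of 0.05 or less in the authors' deposited table, both near the 62.5% of all islands. The ratio was 1.33 (0.868 to 2.04) with the canonical subunits alone and 0.860 (0.586 to 1.25) with the inhibitors alone.

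Islands over starts and gene ends had a lower pooled fold than islands elsewhere. The 8 islands over an annotated start and the 2 over an end of Relb or Nfkbiz, for which no strand was given, held 314 peak and 150 control reads. Their pooled fold was 1.05 (0.860 to 1.28). The other 22 islands held 469 peak and 142 control reads, a pooled fold of 1.65 (1.37 to 2.01). They include the island over the far end of Nfkbia, whose strand was given. The ratio was 0.634 (0.479 to 0.838), and 0.682 (0.501 to 0.928) when the Nfkb1 islands were left out. Rel, Nfkbib and Tnfaip3 had islands over starts alone, and Nfkb1 had none there. Within the 6 genes with islands of both kinds the pooled folds were 1.02 (0.789 to 1.32) and 1.54 (1.22 to 1.94), a ratio of 0.662 (0.467 to 0.940), and 5 of the 6 had the higher fold elsewhere, Nfkbia being the exception. This split was chosen after the values were seen, and islands enter the table through their peak-library reads, with no minimum for control reads.

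**Figure D3:**
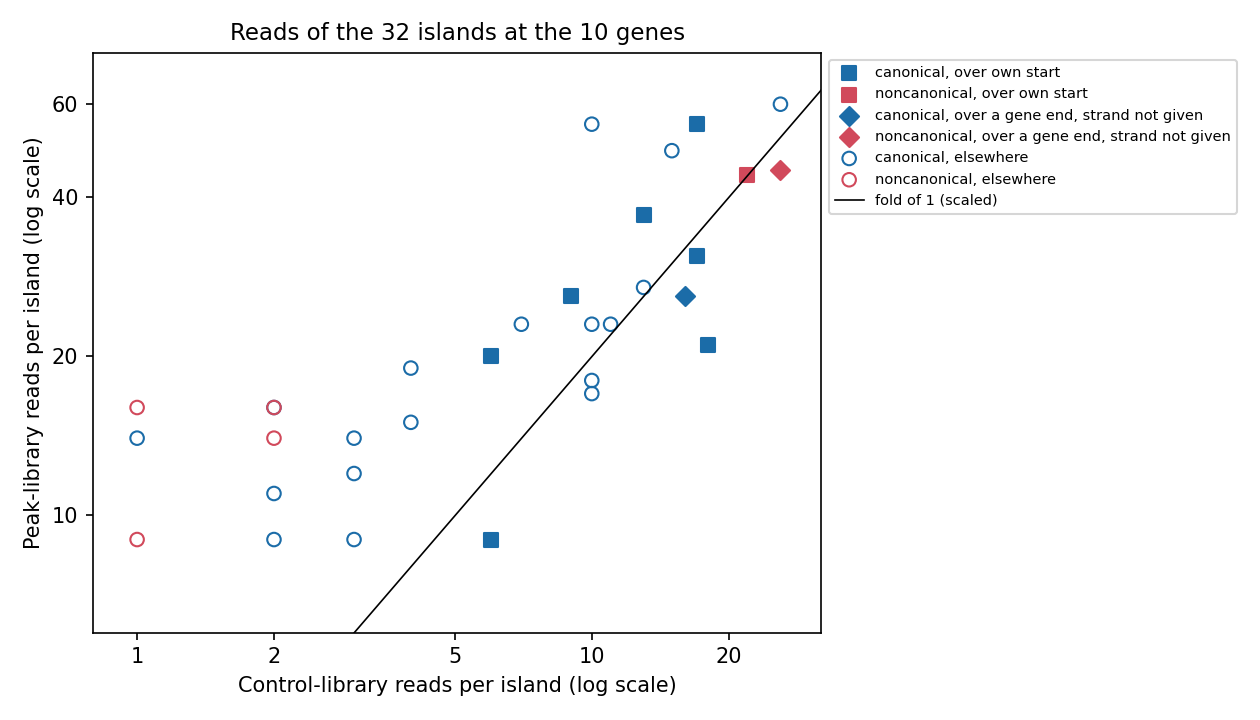
Peak-library reads against control-library reads of the 32 islands on log axes. Filled symbols mark islands over an own start, or over a gene end where no strand was given, and open ones mark islands elsewhere. The line marks a fold of 1 after scaling, and 1 Nfkb1 and 1 Nfkb2 island coincide at 16 peak and 2 control reads. The filled symbols have 6 or more control reads, and the open noncanonical ones have 1 or 2.

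The control library differed most between these positions. Over starts and gene ends the members had 14.95 peak and 7.14 control reads per kb of island, and elsewhere 11.27 peak and 3.41 control reads per kb. None of the 10 islands over starts and gene ends had a fold of 2 or more, and 12 of the 22 others did. The shares were 31.2% of all nuclear islands over a promoter window and 55.4% of those over none. These classes differ from the members' split. The 2 gene-end islands lay over no listed promoter window, and 4 of the 22 others lay over one. Of the members' islands 5 of the 10 and 2 of the 22 lay below 1, against 10.2% of all islands. That share was 14.4% of nuclear islands over a promoter window and 7.88% of those over none. The 2 others below 1, at Nfkb1 and Nfkbie, each covered a promoter window of another gene. An FDR of 0.05 or less stood in the authors' deposited table for 4 of the 10 and 15 of the 22, against 52.8% of all islands over a promoter window and 67.8% of the rest. Among the 18 of the 22 over no promoter window, 14 had such an FDR.

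The whole series showed the same direction. The 6790 nuclear islands over a promoter window, among those with fewer than 200 peak reads, had a pooled fold of 1.42 (1.41 to 1.44), and the 12723 over none had 1.81 (1.80 to 1.83), a ratio of 0.786 (0.775 to 0.796). The direction was thus shared with islands at large. A promoter window of any gene lay under 12 of the 32 member islands and under 34.8% of nuclear islands with fewer than 200 peak reads. Starts absent from the promoter table count among the islands over none. Against all islands over a promoter window, the 8 member islands over an annotated start had a ratio of 0.791 (0.628 to 1.00). The 22 member islands elsewhere had 0.912 (0.754 to 1.11) against islands over none. However, 4 of these 22 lay over a promoter window of another gene. The other 18 had a pooled fold of 1.95 (1.55 to 2.48), against 1.81 for all islands over none.

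**Figure D4:**
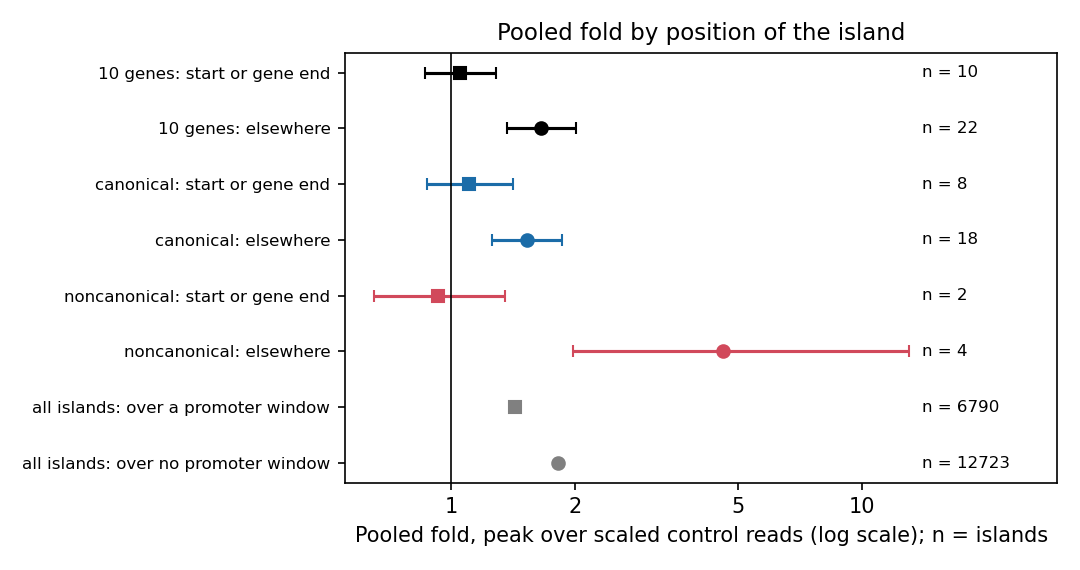
Pooled fold with exact 95% intervals on a log axis for islands over a start or gene end (squares) and elsewhere (circles), for the 10 genes and each arm; n counts islands. For all nuclear islands with fewer than 200 peak reads, the square is islands over a promoter window of any gene and the circle islands over none. The square lies left of its circle in each of the 4 pairs, and the 4 noncanonical islands elsewhere stand at 4.59 with the widest interval.

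No difference between the arms was detectable over starts and gene ends. There, the 8 canonical islands had 225 peak and 102 control reads, a fold of 1.10 (0.870 to 1.41), and the 2 noncanonical islands had 89 peak and 48 control reads, a fold of 0.929 (0.647 to 1.35). The ratio of canonical to noncanonical was 1.19 (0.760 to 1.85). Elsewhere, the 18 canonical islands had 414 peak and 136 control reads, a fold of 1.52 (1.25 to 1.86), and the 4 noncanonical islands had 55 peak and 6 control reads, a fold of 4.59 (1.98 to 13.0). The ratio of canonical to noncanonical islands elsewhere was 0.332 (0.114 to 0.795). It was 0.312 (0.080 to 0.890) against the 3 Relb islands and 0.381 (0.042 to 1.65) against the 1 Nfkb2 island, so an interval that excludes 1 rests on Relb, whose islands were listed through their peak-library reads. With canonical islands over promoter windows of other genes left out as well, the ratio was 0.386 (0.131 to 0.938). All 4 noncanonical islands elsewhere had 2 or fewer control reads, as did 36.8% of all islands over no promoter window, and islands with fewer than 7 peak reads are not in the table.

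No island of the 32 passed an exact binomial test of its 2 counts after Benjamini-Hochberg adjustment over all islands, against 0.374% of the 19531. At an unadjusted p below 0.05 it passed 5 of the 32, against 18.5% of all islands. These were 3 islands of Nfkb1 and 1 each of Nfkb2 and Relb. The lowest unadjusted p of this exact test, 0.00146, belonged to the widest Nfkb1 island (adjusted p = 0.106). The test compares these libraries, not the conditions.

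Other genes of the pathway also carried islands throughout. Of 29 such genes 28 had an island and 20 had one that passed the FDR limit of 0.05 in the authors' deposited table, against 54.7% and 40.3% of protein-coding genes. All 13 listed kinases, adaptors and ubiquitin enzymes of the canonical arm had islands, with 489 peak and 155 control reads in all and a pooled fold of 1.58 (1.32 to 1.91). Among them Traf6, an E3 ubiquitin ligase downstream of IL-1 and Toll-like receptors, had 41 peak and 7 control reads, a fold of 2.93 (1.30 to 7.75). Ripk1, a kinase of the TNF receptor complex, had 67 peak and 13 control reads, a fold of 2.58 (1.41 to 5.10).

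Of 9 genes of the noncanonical arm 8 had islands, with 515 peak and 208 control reads and a pooled fold of 1.24 (1.05 to 1.46). Ltbr, which encodes the lymphotoxin beta receptor, had none. Birc3 and Traf3 encode parts of the complex that destroys NIK in resting cells. They had the highest folds of this list among genes with at least 20 peak-library reads. Birc3 had 101 peak and 34 control reads, a fold of 1.49 (1.00 to 2.26), and Traf3 had 80 peak and 30 control reads, a fold of 1.34 (0.868 to 2.11). The reads of Birc3 include the only island of Birc2, with 34 peak and 14 control reads, which counts for both genes but once in the pooled fold. Of the others with that many reads, Traf2 stood at 1.15, Birc2 at 1.22 and Chuk at 0.845. Map3k14, the NIK gene, named here after its values were seen, had 9 islands with 163 peak and 64 control reads, a fold of 1.28 (0.9497 to 1.73).

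All 7 further inhibitors had islands, with 431 peak and 161 control reads and a pooled fold of 1.34 (1.12 to 1.62). Tnip2, which encodes an A20-binding protein, had 34 peak and 3 control reads in 1 island, a fold of 5.68 (1.78 to 28.9), and N4bp1 had 74 peak and 23 control reads, a fold of 1.61 (0.998 to 2.70). Median folds per gene were 1.63, 1.25 and 1.42 in the canonical, noncanonical and inhibitor lists, against 1.60 over all protein-coding genes with islands.

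Across the table, islands held 483771 peak-library and 189291 control-library reads, and reads outside islands were not counted here, so library depth is unknown. Marker loci were checked against the sort: all 8 LTi markers had islands, with a pooled fold of 2.405 (2.11 to 2.74), against 54.7% of protein-coding genes with an island. Markers of other cells also had islands. These lay at 4 of 5 T cell markers with a pooled fold of 1.502, at 6 of 6 B cell markers with 1.49 and at 3 of 5 myeloid markers with 1.80. For NK cell and ILC1 markers it was 2 of 4 with a fold of 4.01 (1.58 to 13.01), on 40 peak and 5 control reads, for ILC2 markers 3 of 4 with 2.09 and for epithelial markers 2 of 4 with 1.79. Their part in the islands at NF-kB genes was not tested. At the edge of the 10 kb limit, the farthest island counted lay 9832 bp from Nfkb1 with 11 peak and 2 control reads, and the nearest not counted lay 10300 bp from Nfkbie with 12 peak and 2 control reads.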

How the data were processed

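ChIC-seq libraries against TCF-1 were made from 500 fixed cells each, 1 per group, per the labels' protocols, with 1% formaldehyde for 10 minutes and digestion for 3 minutes at 37 °C. Bowtie2 2.4.2, SICER 2.0 and mm10 are named in the submitters' processing notes; of the window, gap and duplicate settings, no source used here says anything. Read counts were deposited as raw whole reads per island in a peak column and a control column, per the file headers. The authors deposited a fold, the ratio of peak reads to scaled control reads, with 1 library factor of 1.997 for all islands with control reads. The p-value and FDR were deposited by the authors.

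Starts and ends were raised by 1 to count from 1. Genes and promoter windows came from RefSeq tables of GRCm38.p6, which give no exons, so exons and introns were not told apart. Pooled folds sum raw reads, with Clopper-Pearson 95% intervals; ratios of folds have exact conditional intervals (SciPy 1.17.1, Python 3.11.15). Such intervals leave out PCR duplication and replicate error. A two-sided exact binomial test was run over all 19531 islands. It was tried on counts simulated for the 19513 nuclear islands with fewer than 200 peak reads. Those simulated counts were not filtered on peak-library reads, as the islands were. Conditions were not tested, since each had 1 library.

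The 10 genes, the pathway and marker lists and the tests were chosen with earlier results of these data known. All 10 genes and all genes overlapping their islands are named. Of each pathway list, the 2 genes with the highest fold and at least 20 peak-library reads and the first 2 without an island are named. Alternatives varied the locus, overlap, read minimum, FDR limit, scaling, membership and shared islands.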

Additional observations from a re-analysis of the deposited data

How the results depend on the processing

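The ratio of the canonical to the noncanonical pooled fold stayed within its interval under every planned change of locus, overlap, read minimum and membership. It was highest, at 1.37 (0.903 to 2.05), with islands of at least 20 peak reads. When each gene was left out in turn, the ratio ran between 0.914 and 1.07. It was 0.332 when islands over an own start or gene end were left out, a choice made after seeing the data, with 6 control reads at the noncanonical genes and the cause not tested; the members' pooled fold was then 1.65. That pooled fold of 1.34 became 1.05 with equal table totals, 2.68 without scaling and 0.828, on the other side of 1, with equal totals after leaving out mitochondrial and high-read islands. With 50 kb on either side there were 68 islands, of which 36 pass the FDR limit of 0.05 in the authors' deposited table, as do 62.5% of all islands. With at least 20 peak reads there were 16 islands, 7 of which pass it, as do 60.8% of all islands of that size. At that size 21 of the 29 pathway genes had an island, against 33.7% of all genes. A called island stood at 13 pathway genes, and the share of all genes with a called island of that size is not given here. An FDR limit of 1e-05 in the authors' deposited table leaves 5 of the 32 islands, against 20.7% of all islands. These 5 lie at 3 of the 10 genes, and 7 pathway genes keep a called island. The share of all genes at that limit is not given here, so these gene counts have no background. The exact binomial test calls 0 islands at 0 genes, with 5 at an unadjusted p below 0.05. Without islands over other genes, Nfkb2 stood at 4.01 on 2 control reads and Nfkbib had no island, and with at least 20 peak reads Relb stood at 0.867. No paired analysis was possible because each group has 1 library and the count columns name no sample. With a median of 8 control reads per island, single islands do not resolve folds such as 1.34.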
